A study of Mus musculus with 27 samples.

Results

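The Vps10-domain sorting receptors are a small family of transmembrane proteins that carry cargo between the trans-Golgi network, the cell surface and endosomes. The mouse has 5 genes for them, Sorl1, Sort1, Sorcs1, Sorcs2 and Sorcs3, and they were found by their symbols in lower case (sorl1, sort1, sorcs1, sorcs2, sorcs3) among the 26264 gene symbols of the table. All 5 passed the filter on low values, a mean of at least 1 FPKM (counted fragments scaled by transcript length and library total), as did 12976 genes in all.

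All mice were 16-week-old females of the 5xFAD strain on a C57BL/6 background, which carries human transgenes with familial Alzheimer's disease mutations, among them APP, and forms amyloid early, so there was no wild-type or uninjected group. Each received 500 nL into the lateral parietal associative cortex of 1 hemisphere. The fluid held 10 mM R33, 10 mM R55 or no drug, always in a solvent of 3% DMSO and 20% cyclodextrin. Blocks of about 1 mm3 of cortex were taken from the injected and the contralateral hemisphere 24 h later and sequenced apart. The 27 libraries used came from 14 mice: 4 with vehicle (4 injected, 4 contralateral libraries), 5 with R33 (5 and 4) and 5 with R55 (5 and 5). Mice are named by the letters of their labels. The contralateral side of a treated mouse is not an untreated sample, because that mouse also received the drug.

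The family meets retromer, the complex that R33 and R55 are meant to stabilise, at the endosome. Retromer, built on Vps35, Vps29 and Vps26, recognises the cytoplasmic tails of several of these receptors and sends them back from endosomes instead of to lysosomes. SorLA, the product of Sorl1, binds APP and holds it away from the compartments where amyloid peptides are cut, and SORL1 is an Alzheimer's disease risk gene. Sortilin, from Sort1, binds proneurotrophins and takes up progranulin for lysosomal delivery. The SorCS proteins are enriched in neurons: SorCS1 sorts neurexin and other synaptic proteins, SorCS2 works with the neurotrophin receptors p75NTR and TrkB, and SorCS3 lies at the postsynaptic density.

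In the GRCm39 assembly, with GENCODE release 39, Sorl1 (ENSMUSG00000049313.10) lies on the minus strand at chr9:41876012-42035656 and has 48 exons in its canonical transcript. Sort1 (ENSMUSG00000068747.16) lies on the plus strand at chr3:108191285-108268842 with 20 exons. Sorcs2 (ENSMUSG00000029093.16) lies on the minus strand at chr5:36174509-36555545 with 27 exons. Sorcs3 (ENSMUSG00000063434.8, plus strand, chr19:48194464-48793944, 27 exons) and Sorcs1 (ENSMUSG00000043531.19, minus strand, chr19:50131737-50667093, 26 exons) share chromosome 19, with 1.34 Mb between them. FPKM are summed over the exons of a gene, so its transcript forms cannot be told apart. Annotated antisense transcripts share exonic bases with Sorl1, Sort1 and Sorcs1. The partners of Sorl1 and Sort1 that are in the table averaged 0.0309 FPKM (Gm16214) and 0.66 FPKM (Gm12522), and whether counting used strand is not given in the sources used here.

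The RefSeq promoter table (GRCm38.p6) held entries for 3 of the 5 genes, Sorl1 (2 entries), Sorcs1 and Sorcs3. The 250 bases before the start are shown for Sorl1 and Sorcs3, the receptors with the lowest p-values against vehicle below. Capitals mark a GC box (GGGCGG or its reverse complement CCGCCC) and an E-box (CACGTG), both searched on both strands. Sorl1 is read from the minus strand of chr9:42124298-42124547, and Sorcs3 from the plus strand of chr19:48205775-48206024.
Sorl1: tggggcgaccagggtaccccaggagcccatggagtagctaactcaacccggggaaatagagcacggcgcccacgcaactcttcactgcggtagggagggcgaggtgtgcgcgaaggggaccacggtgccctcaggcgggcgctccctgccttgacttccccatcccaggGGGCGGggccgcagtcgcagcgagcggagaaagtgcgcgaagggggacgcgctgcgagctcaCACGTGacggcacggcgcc
Sorcs3: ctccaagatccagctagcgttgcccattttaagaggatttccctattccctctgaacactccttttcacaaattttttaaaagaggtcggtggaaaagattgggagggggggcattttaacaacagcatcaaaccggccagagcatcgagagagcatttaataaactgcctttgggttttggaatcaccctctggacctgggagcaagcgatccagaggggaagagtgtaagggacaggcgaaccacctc
The stretch before Sorl1 was 69.6% G and C and held 1 GC box and 1 E-box. The other Sorl1 entry, at chr9:42077214-42077463, was 47.2% G and C and held neither. The stretch before Sorcs3 was 48.4% G and C and held neither. Of all 32851 promoters of the table, 32.7% held the GC box and 6.02% the E-box in these 250 bases. These matches describe letters only, and no binding was measured here.

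The first question was how abundant each receptor is in this cortex. Sort1 was the most abundant, with 99.9 ± 17.5 FPKM (SD, n = 27 libraries) and a higher mean level than 95.4% of tested genes. Sorl1 followed with 33.3 ± 7.9 FPKM, above 82.9% of tested genes. Sorcs3 averaged 9.62 ± 2.25 FPKM, Sorcs2 9.39 ± 1.83 FPKM and Sorcs1 4.75 ± 1.10 FPKM. Sort1 thus made up 63.6% of the summed FPKM of the family on average, and between 56.4 and 66.9% in each library.

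Neighbours in this order were compared within mice, as the per-mouse difference in log2(FPKM + 1) with the hemispheres averaged, by 4 two-sided exact sign-flip permutation tests over 14 mice. Sort1 exceeded Sorl1 by 1.57 ± 0.14 (SD), Sorl1 exceeded Sorcs3 by 1.69 ± 0.19, and Sorcs2 exceeded Sorcs1 by 0.87 ± 0.29 on the log2 scale. Each of these held in 14 of 14 mice, with an exact p of 0.000122, the smallest that 14 mice can give (0.000163 after Benjamini-Hochberg adjustment over the 4 tests). Sorcs3 and Sorcs2 could not be ordered: their difference was 0.02 ± 0.25, Sorcs3 was the higher in 7 of 14 mice, and the exact permutation p was 0.804 before and after adjustment. Levels of different genes also depend on the gene lengths behind the FPKM, which these tests do not cover. Those lengths were 5634 bases for Sorcs3 and 5721 for Sorcs2, while all their exons in GENCODE release 39 span 7140 and 9029 bases.

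The counts behind these levels were large. Libraries held 15932197 to 38077031 fragments on genes, of which Sort1 took 8614 to 28908 and Sorl1 5046 to 23182. Sorcs1, the scarcest receptor, still had 473 fragments in its thinnest library and a median of 1090. Counting error is therefore small beside the spread between libraries. On the log2 scale the SD of mouse means (hemispheres averaged) within 1 treatment ran from 0.24 (Sorcs3) to 0.28 (Sorcs1). The SD of single libraries between hemispheres of 1 mouse ran from 0.20 (Sorcs3) to 0.27 (Sorl1). These are unlike measures, because the SD of mouse means also holds part of the spread between hemispheres. The spread between mice alone was not separated out.

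**Figure D1:**
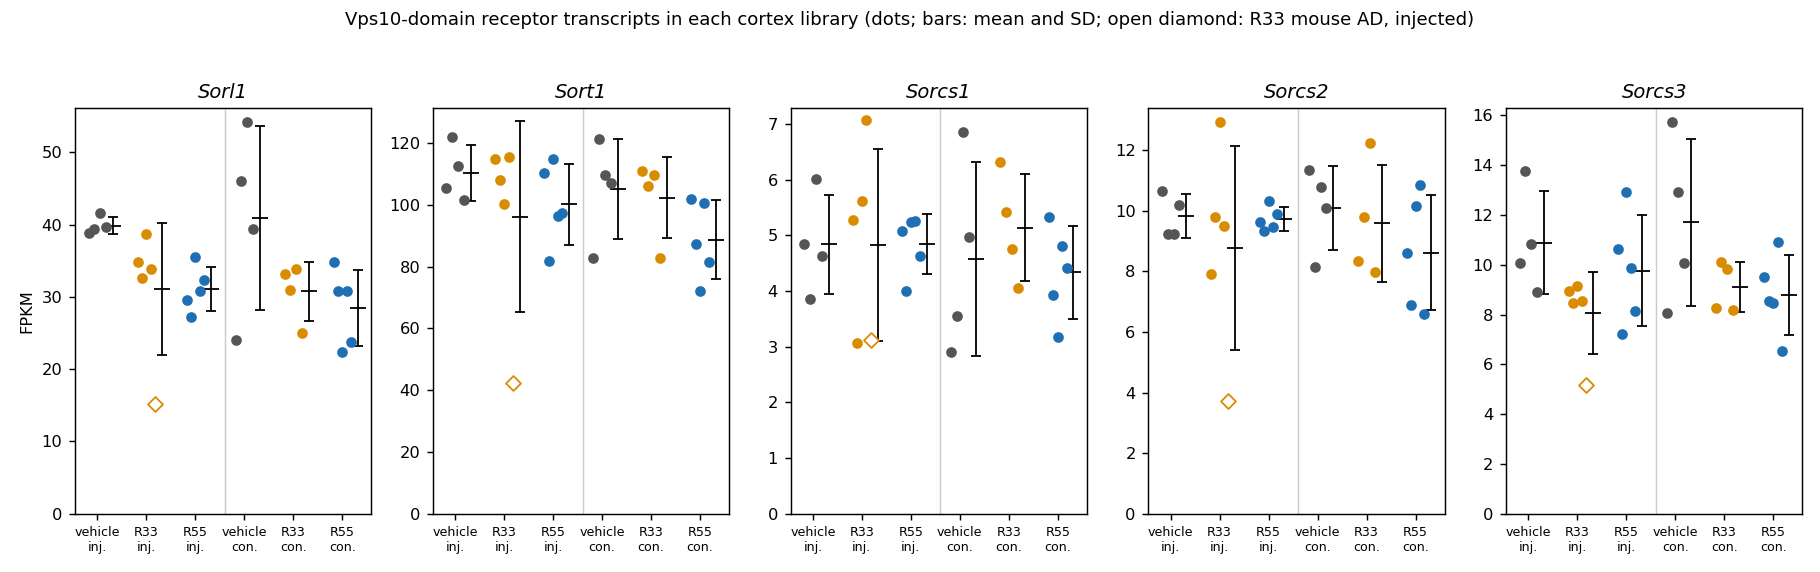
FPKM of the 5 receptors in each of the 27 libraries, by hemisphere (inj., injected; con., contralateral) and treatment, on linear axes from 0. Dots are libraries and bars the mean and SD of a group, with the injected library of R33 mouse AD as an open diamond. All 5 R55 values of Sorl1 in the injected hemisphere lie below all 4 vehicle values, and the AD library is the lowest of all 27 for 4 of the 5 receptors.

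The injected library of R33 mouse AD had the lowest value of all 27 for Sorl1 (15.2 FPKM), Sort1 (42.2 FPKM), Sorcs2 (3.72 FPKM) and Sorcs3 (5.16 FPKM). In that library the summed level of 5 reactive and injury markers was 723 FPKM, against 90.5 to 682 FPKM in the other 26, and that of 5 inhibitory neuron markers was 702 FPKM against 359 to 659 FPKM. The 4 general neuron markers, at 2532 FPKM, lay within the range of the others, 1606 to 2770 FPKM, so defining markers of the labelled tissue were present. All 4 globin genes of the blood list were listed at 0 in every library, and no list of brain cell markers was at 0 in any. Why the globin genes stood at 0 was not tested, so they do not show that the blocks were free of blood. Markers of striatum (31.7 to 206 FPKM outside the AD library) and of choroid plexus (2.67 to 1636 FPKM) varied widely, highest in the injected library of R33 mouse N, so blocks differed in what they held. In bulk tissue, fewer cells of a type and less RNA per cell cannot be told apart.

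A further property of whole libraries moved with the receptors. In each library the deviation of every tested gene from its mean log2 value was regressed on the log2 length of its transcripts. A negative slope means that long transcripts were low in that library. Receptor transcripts are long: at 11243 bases Sorl1 is longer than 98.5% of tested genes, Sorcs1 (8349) than 95.04%, Sort1 (6930) than 90.4%, Sorcs2 (5721) than 83.7% and Sorcs3 (5634) than 83.0%, beside a median of 3149. The AD injected library had the most negative slope (-0.227), followed by the contralateral library of R55 mouse Q (-0.175), and the other 25 ran from -0.0608 to 0.0649. Slopes were not evenly spread over treatments. In the contralateral hemisphere R55 mice had -0.175 (Q), -0.0580 (AB), -0.0513 (AA), -0.00111 (R) and 0.0232 (P). Vehicle mice had -0.0418 (J), 0.0560 (M), 0.0615 (AH) and 0.0633 (L) there. In the injected hemisphere slopes ran from -0.0266 to 0.0649 with R55 and from 0.0192 to 0.0341 with vehicle.

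Across the 27 libraries, the log2 level of Sort1 had a Pearson r of 0.93 with this slope, and that of Sorl1 an r of 0.87. The values were 0.67 for Sorcs3, 0.61 for Sorcs1 and 0.60 for Sorcs2. Without the AD injected library they were 0.88, 0.79, 0.51, 0.56 and 0.22 in the same order. These are descriptions over libraries that share mice, depth and scaling. Low receptor values thus tended to sit in libraries where long transcripts in general were low, and what sets the slope was not tested.

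**Figure D2:**
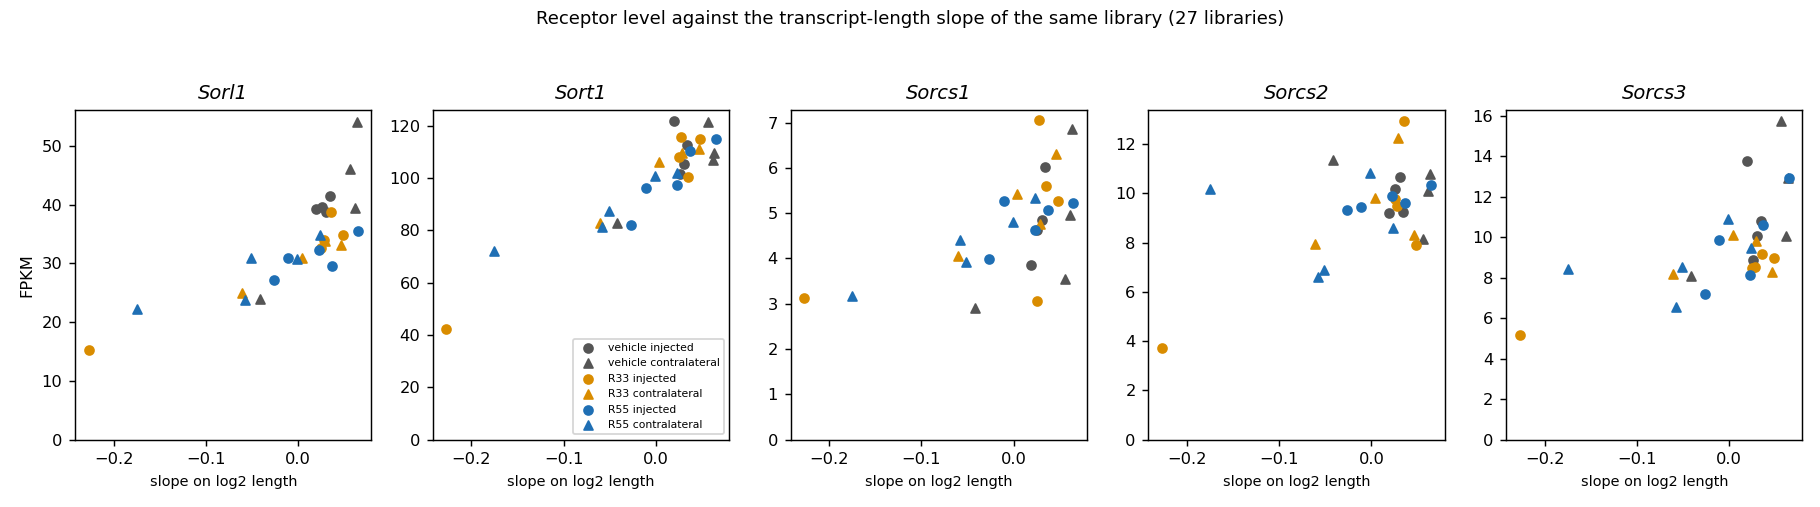
FPKM of each receptor (vertical axes, from 0) against the slope of the same library's log2 values on log2 transcript length (horizontal axes), 1 point per library, coloured by treatment, with circles for injected and triangles for contralateral. The leftmost points are the AD injected library at -0.227 and the Q contralateral library at -0.175, and Sort1 follows the slope most closely.

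R55 was compared with vehicle over both hemispheres, by limma on log2(FPKM + 1) with treatment and hemisphere as additive factors. Fold changes are on that scale, which slightly understates changes of the scarcer receptors. The fit took the hemispheres of a mouse as independent, although they share that mouse. Its p-values and intervals, here and for the contrasts below, can therefore be too small. No receptor was called at a Benjamini-Hochberg adjusted p under 0.05, beside 0.00771% of the 12976 tested genes, which is 1 gene. All 5 estimates were below 0, with a median of -0.19 beside 0.03 for all tested genes. At an unadjusted p under 0.05 there was 1 receptor of 5, Sorl1, beside 8.45% of tested genes in either direction and 3.74% in the lower one. These counts hang on R33 mouse AD, whose libraries enter the shared estimate of spread. Without its injected library 19 genes were called and 1611 had an unadjusted p under 0.05 in limma, with Sorl1, Sort1 and Sorcs3 among the latter, and without the whole mouse 50 genes were called, again with these 3 receptors under 0.05 unadjusted. Called genes also numbered 12 with the R33 libraries left out of the fit, 3 without vehicle mouse J and 4 without vehicle mouse AH, and no receptor was among them. With the mouse as a block, 519 genes had an unadjusted limma p under 0.05, and with 1 value per mouse 440 genes had. In each of these fits 1 receptor was among them.

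Sorl1 had the largest difference. In the injected hemisphere the vehicle mice had 38.8 (J), 39.3 (M), 41.6 (L) and 39.7 (AH) FPKM, and the R55 mice 29.6 (P), 27.2 (AA), 35.5 (Q), 30.8 (R) and 32.3 (AB) FPKM. The groups did not overlap there, with every R55 library below every vehicle library, which held for 0.578% of tested genes. In the contralateral hemisphere the vehicle mice had 24.02 (J), 46.1 (M), 54.2 (L) and 39.4 (AH) FPKM, and the R55 mice 34.8 (P), 30.9 (AA), 22.3 (Q), 30.8 (R) and 23.7 (AB) FPKM. There the groups overlapped through vehicle mouse J alone, whose contralateral value was below 3 of the 5 R55 values.

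The fitted difference of Sorl1 was -0.41 on the log2 scale (SE 0.14, 95% interval -0.70 to -0.12), with a limma p of 0.0078 and an adjusted p of 0.545. Fitted on 1 hemisphere only, it was -0.35 on the injected side and -0.47 on the contralateral side. The test of the difference between hemispheres, not paired by mouse, gave a limma p of 0.70. Without vehicle mouse J the fitted difference was -0.53 and without vehicle mouse L it was -0.33. Once the trend on transcript length was removed from each library, it was -0.24 (SE 0.10), with a p of 0.021 and an adjusted p of 0.734 in limma. With the AD injected library left out the estimate stayed at -0.41, with an adjusted p of 0.124 in limma.

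Of the SorCS genes, Sorcs3 came next. Its vehicle values were 10.1 (J), 13.8 (M), 10.8 (L) and 8.89 (AH) FPKM in the injected and 8.07 (J), 15.8 (M), 12.9 (L) and 10.1 (AH) FPKM in the contralateral hemisphere. The R55 mice had 10.6 (P), 7.21 (AA), 12.9 (Q), 9.88 (R) and 8.14 (AB) FPKM in the injected and 9.49 (P), 8.53 (AA), 8.45 (Q), 10.9 (R) and 6.55 (AB) FPKM in the contralateral hemisphere. The groups overlapped in both hemispheres, and vehicle mouse M had the highest value on either side. The estimate was -0.25 (SE 0.12, 95% interval -0.51 to 0.00), with a limma p of 0.052 and an adjusted p of 0.589. Without vehicle mouse M it was -0.13, with a limma p of 0.32.

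Sort1, the sortilin gene, had 105.6 (J), 122 (M), 113 (L) and 101 (AH) FPKM in the injected and 82.7, 121, 109.6 and 107 FPKM in the contralateral hemisphere of the same vehicle mice. The R55 mice had 110.4 (P), 81.9 (AA), 115 (Q), 96.4 (R) and 97.4 (AB) FPKM in the injected and 102 (P), 87.3 (AA), 72.1 (Q), 101 (R) and 81.5 (AB) FPKM in the contralateral hemisphere. These groups overlapped on both sides, and the fitted difference was -0.19 (SE 0.14, 95% interval -0.48 to 0.10), with a limma adjusted p of 0.659. For Sorcs2 the R55 estimate was -0.12 (SE 0.14), with vehicle libraries at 8.15 to 11.4 and R55 libraries at 6.59 to 10.8 FPKM. Sorcs1 stood at -0.01 (SE 0.13), with vehicle libraries at 2.91 to 6.85 and R55 libraries at 3.18 to 5.33 FPKM, and its sign turned to 0.09 once the length trend was removed.

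R33, the other compound, was compared with the same vehicle libraries, so both contrasts share their controls. No receptor was called, beside 0% of tested genes in limma and 0 genes in limma voom on the recovered fragments. At an unadjusted p under 0.05 there were 762 genes in limma (5.87%, and 2.68% in the lower direction) and 754 in voom. The receptors among them were Sorl1 and Sorcs3, both lower. With the mouse as a block, 292 genes had an unadjusted limma p under 0.05, with 2 receptors among them. The median over the 5 receptors was -0.17 beside 0.02 for all tested genes. Without the AD injected library it was only -0.03, beside 0.007 for all tested genes.

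For Sorl1 the R33 mice had 34.8 (K), 32.6 (AE), 38.8 (O), 33.9 (N) and 15.2 (AD) FPKM in the injected hemisphere, all below the 4 vehicle values there, which held for 0.108% of tested genes. The margin was narrow, since mouse O at 38.75 FPKM lay just under vehicle mouse J at 38.80 FPKM. In the contralateral hemisphere they had 33.2 (K), 31.0 (O), 33.9 (N) and 25.0 (AD) FPKM, above vehicle mouse J and below the other 3 vehicle mice. The R33 estimate for Sorl1 was -0.39 (SE 0.15, 95% interval -0.69 to -0.09), with a limma p of 0.014 and an adjusted p of 0.834. It was -0.27 without the AD injected library, -0.25 with the length trend removed and -0.19 with both.

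For Sorcs3 the R33 mice had 8.97 (K), 8.46 (AE), 9.16 (O), 8.55 (N) and 5.16 (AD) FPKM in the injected and 8.27 (K), 10.1 (O), 9.82 (N) and 8.18 (AD) FPKM in the contralateral hemisphere. Only O and K in the injected hemisphere exceeded the lowest vehicle value there, that of AH at 8.89 FPKM, while contralateral values all lay above vehicle mouse J. The estimate was -0.36 (SE 0.13, 95% interval -0.62 to -0.09), with a limma p of 0.0096 and an adjusted p of 0.834. It was -0.28 without the AD injected library, -0.23 without vehicle mouse M (limma p 0.083) and -0.33 with the length trend removed, so it moved less with length than Sorl1 did.

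Sort1 under R33 was at 42.2 FPKM in the AD injected library and at 100.4 to 116 FPKM in the other 4 injected ones, beside 101 to 122 FPKM with vehicle. Its estimate of -0.17 (SE 0.15) became -0.02 without that 1 library. Sorcs2 likewise went from -0.16 (SE 0.14) to -0.03. Sorcs1 was at 0.06 (SE 0.14) with R33 libraries at 3.07 to 7.07 FPKM and reached 0.12 without the AD injected library. None of these 3 receptors passed an unadjusted p of 0.05 in limma with all 27 libraries.

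**Figure D3:**
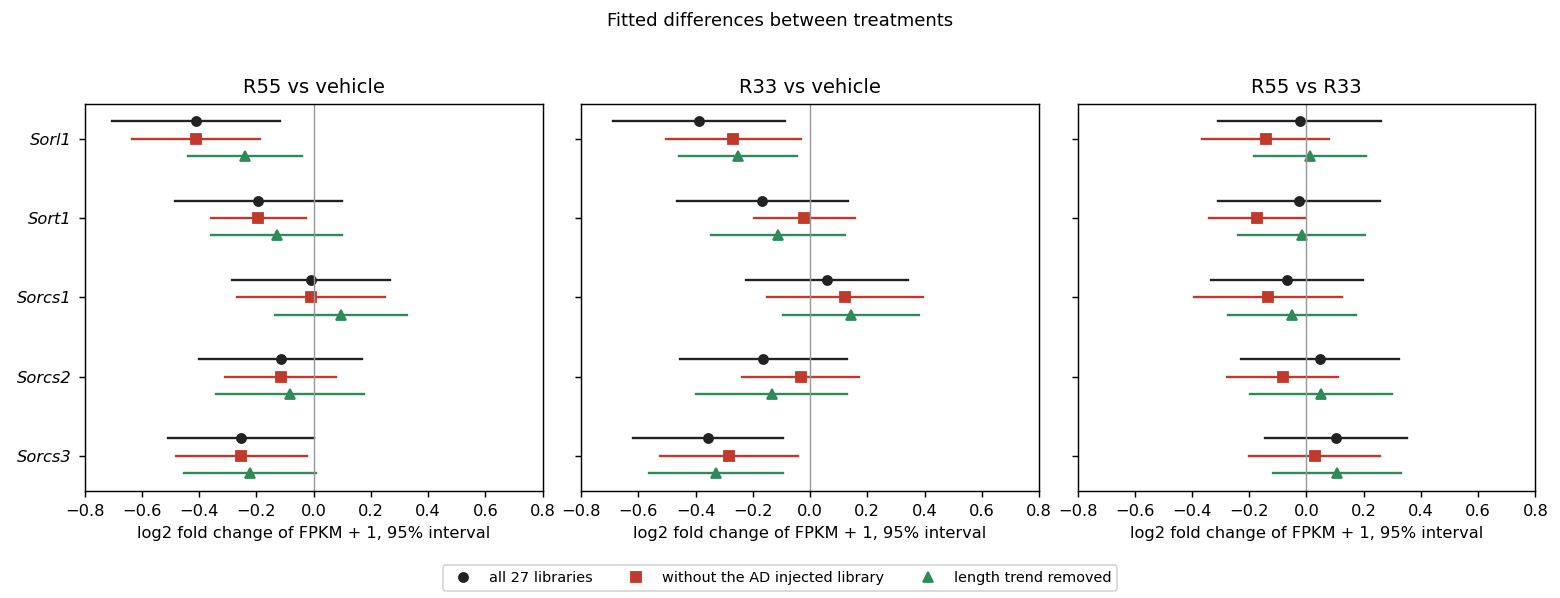
Fitted log2 fold changes (points) with 95% intervals (lines) of the 5 receptors for R55 against vehicle, R33 against vehicle and R55 against R33, from limma with all 27 libraries (black), without the AD injected library (red) and with the length trend of each library removed (green). Sorl1 lies at -0.41 and -0.39 against vehicle and nearer to 0 with the length trend removed, at -0.24 and -0.25.

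The 2 compounds, given at the same dose and read at the same time, were compared directly for all 5 receptors, which makes 5 pairs, with p adjusted over all tested genes. No receptor was called, beside 0% of tested genes, and none had an unadjusted p under 0.05, beside 1.15% (149 genes in limma). R55 minus R33 was -0.02 for Sorl1 (95% interval -0.31 to 0.26), -0.03 for Sort1 (-0.31 to 0.26), -0.07 for Sorcs1 (-0.34 to 0.20), 0.05 for Sorcs2 (-0.23 to 0.32) and 0.10 for Sorcs3 (-0.14 to 0.35). These intervals reach 0.20 to 0.35 above and 0.14 to 0.34 below 0, and do not show that the compounds act alike. Without the AD injected library the value of Sort1 became -0.17 (95% interval -0.34 to -0.00), with a limma p of 0.044 and an adjusted p of 0.848. In that fit 554 of 12976 tested genes had an unadjusted limma p under 0.05. The value of Sorl1 became -0.14 (-0.37 to 0.08).

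The number of letters in a mouse label varied between mice and may mark a series, though no source says so. Single letters belonged to 3 vehicle, 3 R33 and 3 R55 mice, and double letters to 1, 2 and 2. Within the single-letter mice the R55 difference of Sorl1 was -0.37 and the R33 difference -0.20. Within the double-letter mice, where 1 vehicle mouse stands for the control, they were -0.47 and -0.75, the latter holding both AD libraries. For Sorcs3 the values were -0.16 and -0.32 in the single-letter and -0.29 and -0.35 in the double-letter mice. All 8 values kept the sign of the fit over all mice.

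The injected and contralateral hemispheres were compared over all treatments together, without pairing by mouse, so this contrast holds both injection and drug. No receptor was called, beside 0% of tested genes, and none had an unadjusted p under 0.05 in limma, beside 3.47% (450 genes). Injected minus contralateral was 0.04 for Sorl1, 0.03 for Sort1, 0.05 for Sorcs1, -0.00 for Sorcs2 and -0.03 for Sorcs3, each with an SE of 0.10 to 0.12. Of the 13 mice with both libraries, 8 had more Sorl1, Sort1 and Sorcs1 on the injected side, 7 more Sorcs2 and 5 more Sorcs3. Only the vehicle mice received the injection without drug. Their 4 pairs gave mean differences of 0.02 for Sorl1, 0.08 for Sort1, 0.11 for Sorcs1, -0.03 for Sorcs2 and -0.07 for Sorcs3. The SD of these differences was 0.15 to 0.46. For Sort1 the mean was -0.23 in R33 and 0.18 in R55 pairs.

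Single mice moved far in both directions. Vehicle mouse J had 0.67 more Sorl1 on the injected side on the log2 scale, R55 mouse Q had 0.64 more, and R33 mouse AD had 0.68 less. In mouse Q, Sort1 was 72.1 FPKM contralaterally and 115 FPKM on the injected side, and in mouse AD it was 82.8 FPKM contralaterally and 42.2 FPKM on the injected side. The drug effects were tested for a difference between hemispheres too. For R55 and for R33 no receptor was called (0% of tested genes each). None had an unadjusted p under 0.05, beside 1.84% (239 genes) and 0.378% (49 genes) of tested genes in limma. This fit did not pair the hemispheres by mouse. With pairing by mouse, 770 genes for R55 and 124 for R33 had an unadjusted limma p under 0.05, and again no receptor.

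**Figure D4:**
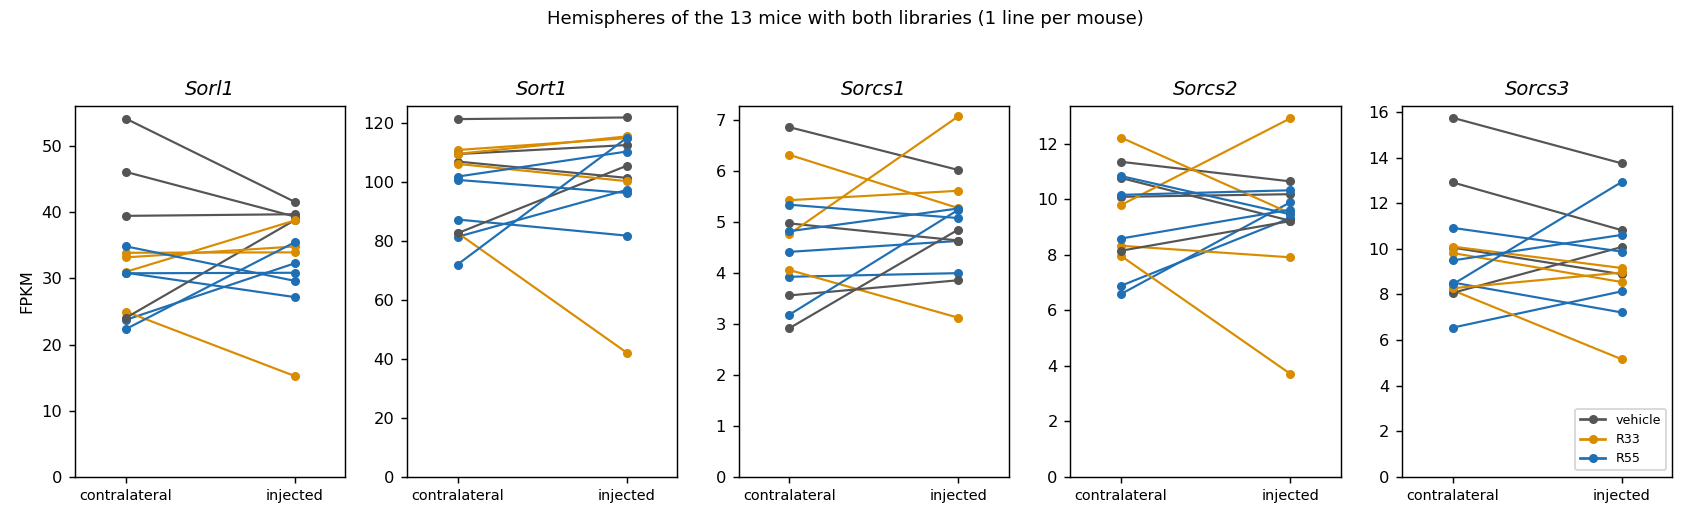
FPKM of each receptor in the contralateral and injected libraries of the 13 mice with both, 1 line per mouse, coloured by treatment, on axes from 0. Lines run in both directions in each receptor, and the steepest fall in Sort1 and Sorcs2 is that of R33 mouse AD.

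Sorl1, Sort1 and Sorcs3 moved together across libraries, and the other receptors less so. The Pearson r of log2(FPKM + 1) over 27 libraries was 0.85 between Sorl1 and Sort1, 0.79 between Sorl1 and Sorcs3 and 0.77 between Sort1 and Sorcs3. It was lowest between Sorcs1 and Sorcs3 (0.29) and between Sorcs1 and Sorcs2 (0.30), although Sorcs1 and Sorcs3 are neighbours on chromosome 19. Without the AD injected library, Sorl1 and Sort1 had 0.78 and Sorl1 and Sorcs3 0.70, while Sort1 and Sorcs2 went from 0.64 to 0.15. Sorcs2 then had 0.10 to 0.23 with each of the other receptors. With the length trend removed, Sorl1 and Sort1 had 0.73, Sorl1 and Sorcs3 0.74 and Sort1 and Sorcs3 0.70. Sorcs1 then had 0.01 with Sorcs2, 0.004 with Sorcs3, 0.23 with Sort1 and 0.30 with Sorl1. These points share mice, scaling and the length slope, so they are given as descriptions.

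Of all tested genes, those most like Sorl1 over the 27 libraries were Celsr2 (r = 0.96), Zzef1 (0.93) and Scn8a (0.93), and those most like Sort1 were Atrn (0.97), Sel1l (0.96) and Cadm2 (0.94). Sorcs1 was most like Pcdh7 (0.87), Cacna1i (0.86) and Magi1 (0.85). The nearest to Sorcs2 were Ntrk2 (0.93), Cdh2 (0.89) and Lrp4 (0.88), and those to Sorcs3 included Dlgap1 (0.88) and Kat6b (0.87). Ntrk2 encodes TrkB, the BDNF receptor, and was in the ligand and cargo list below. Its r with Sorcs2 was 0.83 without the AD injected library, and it left the top 3 once the length trend was removed. With the length trend removed, 6 of the 15 genes, 3 for each receptor, were still among the top 3 of their receptor.

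Cell type markers tracked the receptors unevenly, as mean log2 level of a list against the log2 level of the receptor over 27 libraries. Sorl1 and Sorcs3 had their highest r with excitatory neuron markers (0.54 and 0.58), though Sorcs3 had nearly as much with endothelial markers (0.56). Without the AD injected library Sorl1 had 0.50 with excitatory neuron markers. Sorcs3 then had 0.538 with these and 0.545 with endothelial markers. Negative values of Sorl1 were -0.36 for reactive and injury markers and -0.35 each for astrocyte and microglia markers. Without the AD injected library they were -0.13, -0.55 and -0.31 in the same order. Negative values of Sorcs3 were -0.53 with inhibitory neuron, -0.48 with reactive and injury, -0.41 with microglia and -0.37 with astrocyte markers. Without that library they were -0.49, -0.32, -0.38 and -0.52 in the same order. Sorcs1 had 0.58 with general neuron markers and 0.51 with upper cortical layer markers. With microglia and with reactive and injury markers, Sorcs1 had -0.53 and -0.48, and Sort1 -0.45 and -0.48. Without the AD injected library these were -0.51 and -0.40 for Sorcs1, and -0.52 and -0.23 for Sort1. Sorcs2 differed, with 0.64 for oligodendrocyte precursor and 0.60 for mural cell markers and -0.36 for general neuron markers. Without the AD injected library these were 0.48, 0.50 and -0.47. Between treatments, 5 of 5 astrocyte markers were higher under R55 (median 0.20), 4 of 5 under R33 (0.13), and 3 of 4 excitatory neuron markers were lower under R55 (median -0.05), 4 of 4 under R33 (-0.10), none of them called in limma. Hippocampus markers were lower in 4 of 4 under R55 (median -0.20) and under R33 (-0.10, but 2 of 4 without the AD injected library), and oligodendrocyte markers higher in 5 of 5 under R55 (0.15) and R33 (0.29). Inhibitory neuron markers were higher in 4 of 5 under R55 (0.11) and 5 of 5 under R33 (0.20), with none called in these lists either. General neuron markers did not share the direction of the excitatory ones. They were higher in 3 of 4 under R55 (median 0.07) and under R33 (0.06, but 2 of 4 without the AD injected library), none called. Medians over all tested genes were 0.03 for R55 and 0.02 for R33. Differences of the other marker lists between treatments are not given here. The summed excitatory markers spanned 1302 to 1939 FPKM in vehicle injected, 1362 to 1773 in R55 injected and 1165 to 1748 in R33 injected libraries, so the ranges overlapped. In the contralateral hemisphere they were 1626 to 1747 FPKM with vehicle (median 1712) and 1313 to 2023 FPKM with R55 (median 1374), where mice P, AA and Q lay below every vehicle library, and 1491 to 1687 FPKM with R33 (median 1583). Their part in the lower Sorl1 and Sorcs3 values was not tested.

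The partners of these receptors were read from 3 lists. The first held 22 genes of retromer and its adaptors, all tested, and none was called against R55 or R33. Under R55, 13 were higher and 9 lower, with a median of 0.03, the same as over all tested genes, and 1 passed an unadjusted p of 0.05, beside 8.45% of tested genes. That was Cltc, the clathrin heavy chain, at 88.7 ± 11.1 FPKM in 8 vehicle and 78.5 ± 4.8 FPKM in 10 R55 libraries (log2 fold change -0.17, limma adjusted p 0.557). The next in size were the sorting nexins that bend endosomal membrane, Snx5 (0.14), Snx6 (0.13) and Snx1 (0.12), all with an unadjusted p above 0.05 in limma. Under R33, 10 were higher and 12 lower with a median of -0.01, and Snx5 (0.16) passed an unadjusted p of 0.05, beside 5.87% of tested genes.

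The second list held 26 ligands and cargoes of the receptors, of which 22 were tested and none was called. Under R55, 7 were higher and 15 lower, with a median of -0.10, and under R33 5 were higher and 17 lower with a median of -0.08. Without the AD injected library, 8 were higher and 14 lower under R33, with a median of -0.02. The largest R55 values were those of the AMPA receptor subunit Gria1 (-0.46, SE 0.24), the neurotrophin Ntf3 (-0.41, SE 0.24), the NMDA receptor subunit Grin2a (-0.37, SE 0.14) and the synaptic adhesion gene Nlgn1 (-0.24, SE 0.10). Of these Grin2a and Nlgn1 had an unadjusted p under 0.05 (limma adjusted p 0.552 and 0.557), which is 2 of 22 beside 8.45% of tested genes. Both have very long transcripts (15520 and 16445 bases), and their values became -0.13 and 0.01 with the length trend removed, while Gria1 stayed at -0.42. Gria1 spread widely, at 90.6 ± 39.3 FPKM in vehicle and 62.3 ± 16.5 FPKM in R55 libraries.

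The third list held 13 enzymes that mature or shed the receptors and their cargo, all tested, with none called. Under R55, 6 were higher and 7 lower (median -0.01), and under R33 5 and 8 (median -0.03). Psenen, a subunit of gamma-secretase, was the 1 gene of 13 with an unadjusted p under 0.05, beside the same 8.45% of tested genes (0.19, SE 0.07, limma p 0.012, adjusted p 0.552), at 10.001 ± 0.891 FPKM in vehicle and 11.6 ± 1.1 FPKM in R55 libraries. Its transcript is short, 789 bases, and with the length trend removed the value was 0.09. Aph1b (-0.09), Aph1a (0.09) and the proprotein convertase Furin (-0.07) followed.

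**Figure D5:**
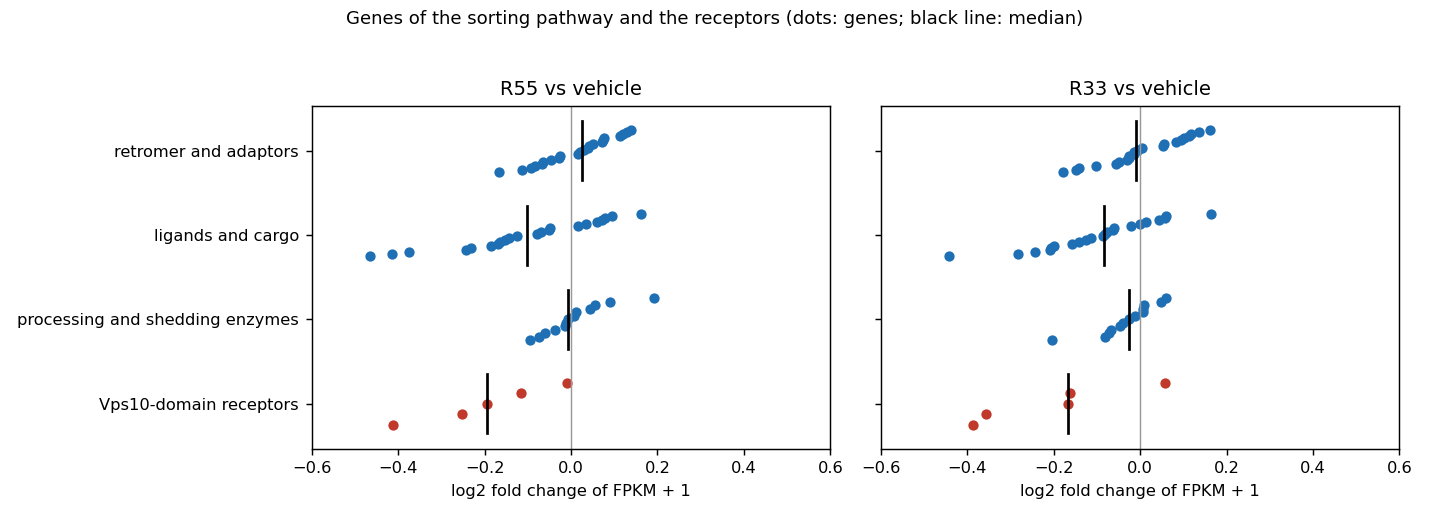
Log2 fold changes of the tested genes in the 3 lists (blue) and of the 5 receptors (red) for R55 and R33 against the same vehicle libraries, 1 dot per gene, with the median of each list as a black line. Medians lie near 0 except for ligands and cargo (-0.10 and -0.08) and the receptors (-0.19 and -0.17). Without the AD injected library (not drawn) the R33 medians of these are -0.02 and -0.03.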

How the data were processed

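RNA of 27 cortex libraries was analysed. The authors prepared stranded mRNA libraries, used HISAT2 to align the read pairs to GRCm39, tested with DESeq2 and deposited FPKM, scaled by the total of counted fragments per library and by gene length. The counting tool and annotation are not given in the sources used here. All FPKM above 0 were whole multiples of 1 fragment within 0.01 (100.0%), so fragments and gene lengths were recovered. The table held 32 libraries, of which 5 were not used here.

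Groups follow the treatment and hemisphere in the labels, and the paper gives 6 mice per group. The 12976 genes whose mean reached 1 FPKM were fitted with limma 3.58.1 in R 4.3.3 on log2(FPKM + 1) (treatment and hemisphere as factors, intensity trend), with Benjamini-Hochberg adjustment and calls under 0.05. Libraries of 1 mouse share that mouse: deviations from group means correlated between hemispheres with a median r of 0.45 over 13 pairs (-0.08 to 0.65), so the mouse was a block in an alternative. The length trend was removed by lowess (span 0.3). Other alternatives covered pseudocount, filter, size factors, voom, subsets of mice and left-out mice. Checked on simulated data for R55 against vehicle (12976 genes), the fit recovered 66.5% of 200 genes changed by 0.5 and 94% changed by 1 on the log2 scale. It also called 12 and 7 unchanged genes. The simulated libraries were drawn independently, with no shared mice, length trend or outlying library. These shares therefore check the code and do not give the power of the fit on the real libraries. Python 3.11.15 was used for the rest. Named were all receptors, the 4 list genes with the largest R55 changes and the 3 genes most like each receptor, of which some items are not reported here. Members and lists were chosen with earlier results of these data known.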

Additional observations from a re-analysis of the deposited data

Results flagged for a closer look

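Over 30 combinations of receptor and group, 4 had a library far from the others by Dixon's criterion at the 95% level, which chance alone exceeds in about 1 of 20 groups. All 4 were libraries of R33 mouse AD, and they are not independent, since they come from 2 libraries. In the injected hemisphere AD had 15.2 FPKM of Sorl1 with the nearest library at 32.6 FPKM, 42.2 FPKM of Sort1 with the nearest at 100.4 FPKM, and 5.16 FPKM of Sorcs3 with the nearest at 8.46 FPKM. In the contralateral hemisphere AD had 82.8 FPKM of Sort1 with the nearest at 106 FPKM, only just past the criterion. These libraries had the lowest and the third lowest slope on transcript length of all 27, at -0.227 and -0.0608.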

How the results depend on the processing

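No receptor and no gene of the 3 lists was called under any of the 35 alternatives, and the exact tests of the order of levels gave 3 separated neighbours of 4 in each setting they were run in. With the mouse as a replicate block (the hemispheres are paired by mouse), 0 receptors were called and the R55 difference of Sorl1 stayed at -0.41 (limma adjusted p 0.90). The block changed no call of a receptor. Over all tested genes it removed the 1 call for R55 against vehicle (smallest limma adjusted p 0.77). Genes with an unadjusted limma p under 0.05 fell there from 1096 to 519. Over all alternatives Sorl1 ran from -0.53 to -0.24 against R55 and from -0.75 to -0.19 against R33, with smallest adjusted p of 0.083 and 0.20, and Sorcs3 from -0.35 to -0.13 and from -0.44 to -0.23. Without R33 mouse AD the R33 value of Sorl1 was -0.22 (limma p 0.067). Of the 15 genes most like a receptor, 6 were shared with the length trend removed, 7 with 1 value per mouse and 8 without the AD injected library. Over all tested genes, those called for R55 against vehicle went from 1 to between 0 and 50 (50 without mouse AD, 19 without its injected library), those for R33 from 0 to 1 without the filter, and those for R55 against R33 from 0 to 2 without mouse AD. Of 635 alternative fold changes 68 changed sign, of which 27 came from leaving out a mouse, all between uncalled values, and the cause was not tested. The fits without single libraries, by label letters within mice and with 2 choices changed at once were added after seeing the data.

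For R55 against vehicle, Sorcs1 changed sign to 0.094 with the length trend removed (0.094 also with the replicate block and without the AD injected library), 0.027 with label letters as a covariate, 0.0073 in the injected hemisphere, 0.033 without the AD injected and Q contralateral libraries and 0.065 in single-letter mice. For R33 against vehicle, Sort1 became 0.00035 with the length trend and the AD injected library removed and 0.018 in single-letter mice, Sorcs2 0.017 in single-letter mice, and Sorcs1 -0.042 in the injected hemisphere and -0.384 in double-letter mice. For R55 against R33, Sorl1 became 0.013 with the length trend removed (0.010 with the replicate block too), 0.059 in the injected hemisphere and 0.278 in double-letter mice. Sort1 was at 0.134 and 0.248 and Sorcs1 at 0.050 and 0.235 in these 2 subsets, and Sorcs3 at -0.055 in the contralateral hemisphere. Sorcs2 was at -0.144 there, -0.083 without the AD injected library, -0.056 with the length trend removed as well, -0.105 without the Q contralateral library as well and -0.020 in single-letter mice. For injected against contralateral, R33 mice alone gave -0.040 for Sorl1, -0.165 for Sort1 and -0.114 for Sorcs1, and R55 mice alone 0.18 for Sorcs2 and 0.128 for Sorcs3. In the same comparison Sorcs2 was 0.011 with label letters as a covariate, 0.079 without the AD injected library, 0.052 with the length trend removed as well, 0.095 without the Q contralateral library as well and 0.112 in double-letter mice. Sorcs3 was 0.014 without the AD injected library, 0.0061 without Q contralateral as well and 0.027 in single-letter mice, while Sort1 was -0.069 and Sorcs1 -0.095 in double-letter mice. Leaving out 1 mouse at a time gave -0.092 to 0.128 for Sorcs1 under R55, -0.237 to 0.021 for Sort1 and -0.023 to 0.195 for Sorcs1 under R33. For R55 against R33 it gave -0.190 to 0.033 for Sorl1, -0.215 to 0.044 for Sort1 and -0.115 to 0.141 for Sorcs2. Between hemispheres it gave -0.0077 to 0.087 for Sorl1, -0.016 to 0.099 for Sort1, -0.044 to 0.059 for Sorcs2 and -0.079 to 0.0048 for Sorcs3. With 4 to 5 mice a treatment, differences of 0.3 on the log2 scale remained within most intervals.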
